A study of Mus musculus with 13 samples.

Results

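The miRNAs of the imprinted Dlk1-Dio3 cluster were followed in vesicles of a mouse tumour and of mouse plasma. They were taken by name, every listed arm of 42 precursor names from miR-127 to miR-770, which gave 82 mature miRNAs of the 1452 listed in either count table. All 82 stood in the plasma table and 76 of them also in the table of tumour-cell vesicles. The choice used names alone and no measured value, although it was made with earlier results of these data known.

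Small RNA was sequenced in 13 libraries of vesicles pelleted in a last spin at 100000 g. The first group held 3 libraries of vesicles (called TMVs) from serum-free medium in which C26 cells, a colon adenocarcinoma line of the Balb/C mouse strain, had been grown for 48 h. A second group held 6 libraries of plasma vesicles from Balb/C mice labelled cachectic, that is wasting, which had carried C26 cells under the skin of the back until day 14 after injection. The third held 4 libraries of plasma vesicles from Balb/C mice labelled healthy, for which no sham injection is described. No genetic change, and no age or sex of the mice, is given. Plasma pools vesicles of all tissues, so a change in the number of vesicles from one source cannot be told apart from a change in their miRNA load.

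The cluster lies on an imprinted stretch of the genome, where the parental copies are not used alike. The protein genes Dlk1, Rtl1 and Dio3 are read from the paternal copy, while the noncoding transcripts Meg3, Rtl1 antisense, Rian and Mirg are read from the maternal copy and carry the miRNAs in long series. These miRNAs are abundant in embryo, placenta and brain and are also known from muscle and muscle progenitors. A mature miRNA is cut from the 5p or the 3p arm of its hairpin and pairs with messenger RNA mainly through its seed, bases 2 to 8.

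Mature sequences were matched to RefSeq (GRCm38.p6) for 78 of the 82 miRNAs. All 78 lay on the plus strand of chromosome 12, from 42 precursors within 180 kb, downstream of Dlk1 (chr12:109452823-109463336). The following are the 7 members that could be tested against tumour vesicles, the second arm of miR-434, the close relative miR-300-3p and 3 further members. Those 3, miR-341-5p, miR-412-3p and miR-665-3p, had all or nearly all plasma counts in the libraries rich in miR-5119, which are named below. Capitals mark the seed.
miR-434-5p: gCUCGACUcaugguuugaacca
miR-434-3p: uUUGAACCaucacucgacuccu
miR-127-3p: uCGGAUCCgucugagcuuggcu
miR-541-5p: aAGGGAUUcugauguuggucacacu
miR-379-5p: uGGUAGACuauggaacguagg
miR-411-5p: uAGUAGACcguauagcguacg
miR-381-3p: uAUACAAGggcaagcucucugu
miR-300-3p: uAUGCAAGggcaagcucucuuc
miR-409-3p: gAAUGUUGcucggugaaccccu
miR-341-5p: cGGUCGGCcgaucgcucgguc
miR-412-3p: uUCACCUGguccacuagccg
miR-665-3p: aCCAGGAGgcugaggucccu

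The leading members do not share seeds. Among the 19 matched members with at least 10 counts, 2 pairs had seeds that differed at 1 base. Counted from the 5′ end, miR-379-5p and miR-411-5p differed by G2A, and miR-381-3p and miR-300-3p by A4G. Over all matched members 3 seeds occurred in 2 members each (AUGUAAC in miR-379-3p and miR-411-3p, GGUUGUC in miR-410-5p and miR-494-5p, UGGAUAU in miR-376b-5p and miR-376c-5p), and none of these miRNAs had 10 counts.

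The positions were set beside the genes of the GENCODE annotation (GRCm38, release M21). miR-127-3p (chr12:109592888-109592909) and miR-434-5p (chr12:109594528-109594549) lay opposite an exon of Rtl1 (chr12:109589193-109600330, minus strand), a retrotransposon-derived gene whose messenger RNA both are known to match fully. miR-341-5p (chr12:109611521-109611541) lay in an intron of Rian. miR-541-5p (chr12:109742422-109742446) and miR-409-3p (chr12:109743204-109743225) lay in introns of Mirg. miR-379-5p (chr12:109709065-109709085), miR-411-5p (chr12:109710190-109710210) and miR-381-3p (chr12:109726870-109726891) had no annotated host gene. Of the 19 matched members with at least 10 counts, 4 lay opposite Rtl1 exons, 1 in Meg3, 2 in Rian, 6 in Mirg and 6 in none. The sources used here do not give the build of the authors' own counting.

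Depth limited what could be read from these miRNAs. Library totals ran from 112357 to 170571 miRNA counts in TMVs, from 7962 to 131385 in control plasma and from 9828 to 76376 in C26-bearing plasma. Levels are given as counts per 1000000 miRNA counts of the library (CPM), and in C26-bearing replicate 4 a single count was worth 101.8 CPM. A single miRNA, miR-5119, made up 46.1% of control replicate 4 and 26.6% to 58.7% of C26-bearing replicates 1 to 4, against at most 2.55% in the other 5 plasma libraries. The labels do not say whether the plasma libraries come from single or pooled mice. TMVs and plasma came in separate tables, and material and sequencing run cannot be told apart.

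The cluster made up a small part of the vesicle miRNAs, and a smaller one in tumour-cell vesicles than in plasma. All 82 plasma members together held 1301 of the plasma counts (0.235% of them, from 6.06% of the rows), and the 76 members of the TMV table held 57 counts (0.0133%, from 6.53% of the rows). In TMV replicates 1 to 3 the summed share was 0.00682% (95% Wilson interval 0.00371 to 0.0126), 0.0249% (0.0172 to 0.0360) and 0.0111% (0.00713 to 0.0174). In C26-bearing replicates 1 to 3 it was 0.140% (0.0962 to 0.203), 0.433% (0.389 to 0.483) and 0.174% (0.145 to 0.209), and in replicates 4 to 6 it was 0.458% (0.342 to 0.612), 0.165% (0.124 to 0.220) and 0.0496% (0.0306 to 0.0806). In control replicates 1 to 4 it was 0.279% (0.252 to 0.310), 0.117% (0.0915 to 0.149), 0.212% (0.188 to 0.238) and 0.327% (0.223 to 0.478). The intervals cover counting error only.

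All 3 TMV libraries thus lay below the lowest plasma library, C26-bearing replicate 6. The mean share was 0.0143% ± 0.00945 (SD, n = 3) in TMVs, 0.234% ± 0.0911 (SD, n = 4) in control plasma and 0.237% ± 0.168 (SD, n = 6) in C26-bearing plasma. The control libraries lay within the range of the C26-bearing ones, and the means of these groups differed by less than the SD of either. With miR-5119 taken out of the totals, the means were 0.386% ± 0.301 (SD, n = 6) and 0.304% ± 0.212 (SD, n = 4). C26-bearing replicate 2 held 57.1% of the cluster counts of its group with 32.97% of all counts of the group. No test was made of the sum, since its members were chosen with earlier results known.

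**Figure D1:**
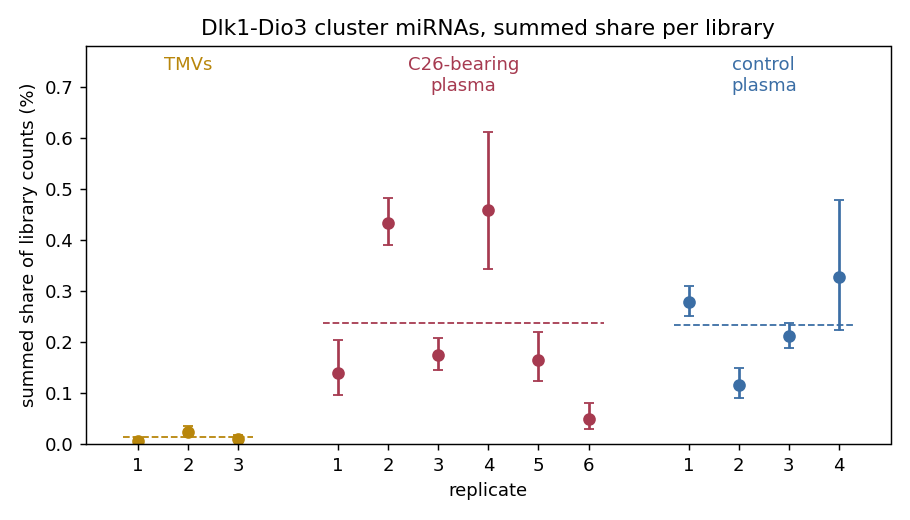
Summed share of the Dlk1-Dio3 cluster miRNAs in each library (y axis, % of the library's miRNA counts) by replicate (x axis). Points are libraries, bars are 95% Wilson intervals and dashed lines are group means; the TMV libraries lie at 0.00682% to 0.0249%, the plasma libraries at 0.0496% to 0.458%.

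Many members were not seen at all. Of the 82, 55 had at least 1 count in some library and 20 had at least 10 counts over the 13 libraries. In plasma 53 of 82 (64.6%) were detected, beside 70.5% of all 1354 plasma miRNAs. In TMVs only 19 of 76 (25%) were detected, beside 57.3% of the 1164 listed, and 9 of the 19 rested on 1 count. A library held 10.7 members on average in TMVs (8 to 14), 15.8 in control plasma (13 to 19) and 20.3 in C26-bearing plasma (9 to 32). At a common depth of 7962 counts the expected numbers were 1.04, 9.38 and 10.1, so the plasma groups lay closer at equal depth. A count of 0 in a TMV library allows a level of up to 17.6 to 26.7 CPM, the worth of 3 counts there.

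Between the plasma groups, 27 members had counts in both, 20 in C26-bearing plasma alone and 6 in control plasma alone. Presence in one group alone says little here, since 18 members had exactly 1 plasma count. The groups also hold unequal numbers of libraries, 6 C26-bearing and 4 control. The same split was not counted over all plasma miRNAs, so these numbers are not a lean of the cluster to either group. Only miR-412-5p and miR-493-5p had a count in TMVs and none in plasma, 1 count each.

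A few members carried most of the signal. The 5 with the most plasma counts, miR-434-5p, miR-541-5p, miR-379-5p, miR-381-3p and miR-127-3p, held 62.0% of the plasma counts of the cluster, and the leading 10 held 81.6%. In TMVs 5 members held 66.7% of the 57 counts, led by miR-127-3p with 15, miR-409-3p with 9 and miR-379-5p with 6. The next paragraphs give each leading member by library in CPM of the library's own total, with replicates in order.

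The miRNAs opposite Rtl1 come first. miR-434-5p stood at 0, 0 and 5.86 CPM in TMVs, at 155, 367, 151, 305, 323.2 and 93.1 CPM in C26-bearing plasma and at 944, 35.9, 350 and 0 CPM in control plasma. Its control libraries spanned the whole range of the C26-bearing ones, and 119 of its 167 control counts came from control replicate 1. miR-127-3p stood at 6.82, 97.9 and 17.6 CPM in TMVs, at 0, 275, 75.7, 305, 71.8 and 0 CPM in C26-bearing plasma and at 262, 71.7, 198 and 251 CPM in control plasma. It was seen in every control library and missing from 2 C26-bearing ones, and its values in TMV replicate 2 reached those of plasma. The other arm, miR-434-3p, had 1 TMV count and 34 and 11 counts in the plasma groups, and miR-136-3p had 0, 14 and 2.

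Of the members in Mirg, miR-541-5p was the steadiest in control plasma. It stood at 6.82, 0 and 5.86 CPM in TMVs, at 155, 602, 212, 204, 144 and 124 CPM in C26-bearing plasma and at 452, 340.7, 441 and 251 CPM in control plasma. In plasma, 5 of 6 C26-bearing libraries lay below every control library and replicate 2 lay above them all. The lowest control value, 251 CPM, comes from control replicate 4, the library with 7962 counts. These totals include miR-5119, which made up 26.6% to 58.7% of C26-bearing replicates 1 to 4 and 46.1% of control replicate 4. The order with miR-5119 left out, and how often other miRNAs show such an order, were not looked at. miR-409-3p stood at 6.82, 17.8 and 35.2 CPM in TMVs, at 0, 118, 151, 204, 35.9 and 31.0 CPM in C26-bearing plasma and at 87.3, 126, 244 and 0 CPM in control plasma, with every group overlapping the others. miR-382-5p stood at 13.6, 8.90 and 5.86 CPM in TMVs, at 51.8, 157, 15.1, 204, 35.9 and 0 CPM in C26-bearing plasma and at 87.3, 0, 98.9 and 0 CPM in control plasma. Both were near the limit of detection in several plasma libraries. miR-134-5p, known from neurons as a regulator of dendritic spines, had 1, 7 and 13 counts in TMVs, C26-bearing and control plasma.

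The members between Rian and Mirg belong to a series induced by the factor Mef2 in neurons. miR-379-5p stood at 0, 35.6 and 11.7 CPM in TMVs, at 104, 799, 227, 305, 108 and 31.0 CPM in C26-bearing plasma and at 206, 71.7, 206 and 0 CPM in control plasma. Its relative miR-411-5p had no count in any TMV library and stood at 51.8, 262, 106, 204, 144 and 0 CPM in C26-bearing plasma and at 190, 0, 68.5 and 0 CPM in control plasma. miR-381-3p stood at 6.82, 8.90 and 11.7 CPM in TMVs, at 51.8, 550, 197, 407, 215 and 62.0 CPM in C26-bearing plasma and at 246, 197, 206 and 0 CPM in control plasma. All 3 had their highest value in C26-bearing replicate 2 and overlapped between the plasma groups; the 0 of control replicate 4 comes from the library with 7962 counts.

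In Rian, miR-341-5p was of another kind. It is not listed in the TMV table and stood at 104, 0, 0, 916, 0 and 0 CPM in C26-bearing plasma and at 0, 0, 0 and 502 CPM in control plasma. Its 15 counts came from 3 libraries, so its place among the 8 highest mean levels rests on shallow libraries.

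**Figure D2:**
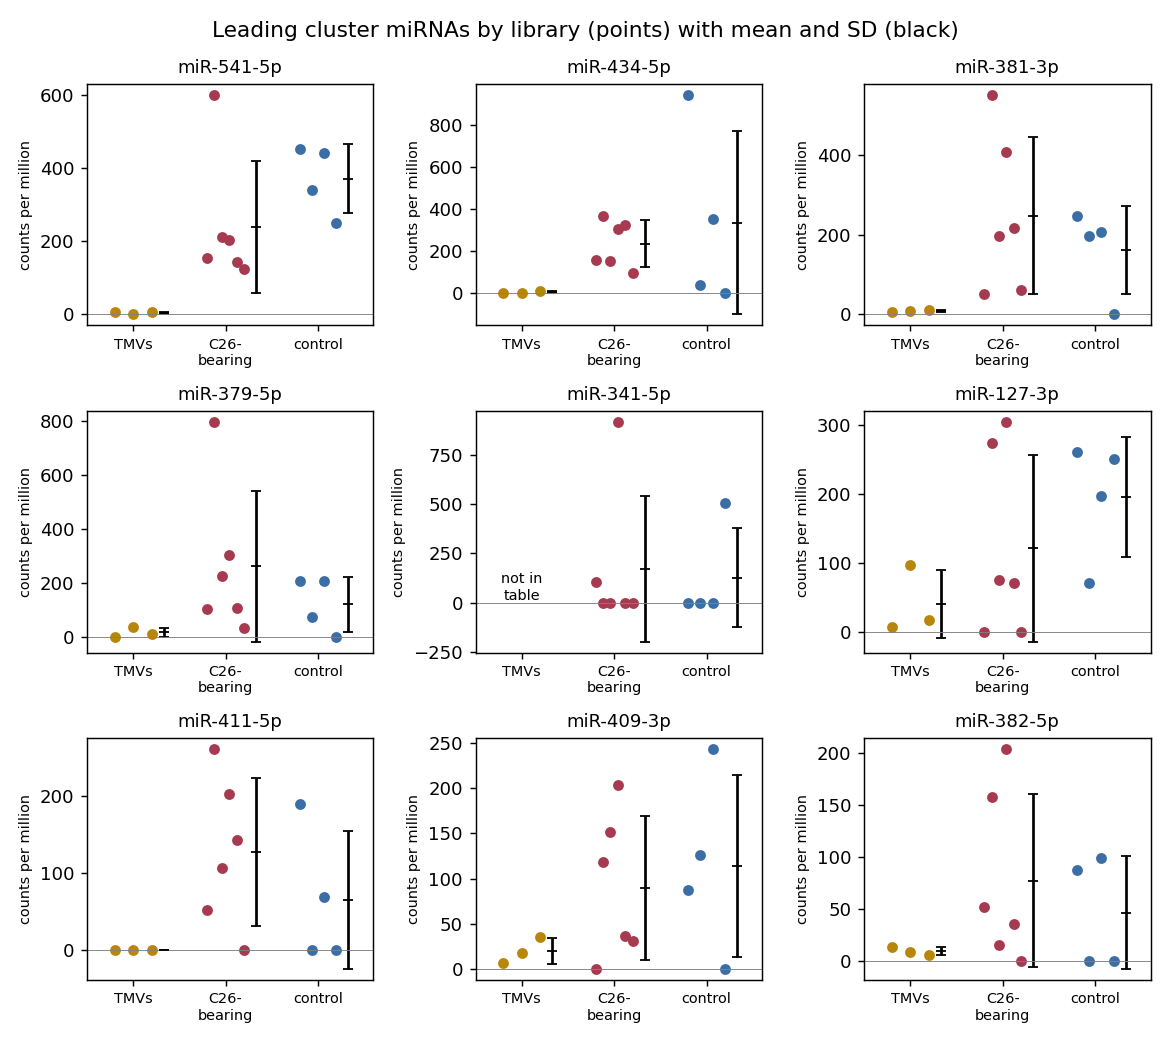
Level of 9 leading cluster miRNAs (y axis, CPM) in TMVs, C26-bearing plasma and control plasma (x axis). Coloured points are libraries and black bars are the mean ± SD; for miR-541-5p all 10 plasma libraries, at 124 CPM or more, lie above the TMV libraries, at 6.82 CPM or less.

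The first comparison asked whether the cluster differed in plasma vesicles of tumour-bearing mice. By edgeR's quasi-likelihood test with Benjamini-Hochberg adjustment none of the members tested passed the threshold, and only 3 of the 82 had enough counts to enter the 130 miRNAs tested. miR-127-3p, at 121 ± 135 CPM (SD, n = 6) against 196 ± 87.2 (SD, n = 4), had a log2 fold change of -0.66 (SE 0.98, adjusted p = 0.766). miR-434-5p, at 232 ± 113 CPM (SD, n = 6) against 333 ± 437 (SD, n = 4), had -0.59 (SE 0.87, adjusted p = 0.766). miR-541-5p, at 240 ± 181 CPM (SD, n = 6) against 371 ± 94.6 (SD, n = 4), had -0.48 (SE 0.57, adjusted p = 0.761).

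These 3 negative values stand beside a median of 0.01 over all 130, of which 64 were below 0. Of all 130, 0 (0%) passed an adjusted p of 0.05, and 15 (11.5%) had an unadjusted p below it, none of them a member. DESeq2 called 4 of all miRNAs and no member. The SEs of the 3 members were 0.57 to 0.98 on the log2 scale. Even miR-455-5p, at -4.04 with an SE of 0.86, did not pass (edgeR adjusted p = 0.0809). Changes of several SE could therefore not be told from none at this spread.

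Without the filter on low counts 53 members entered the fit and 0 were called, beside 4 of all 955 (0.419%). An unadjusted p under 0.05 was found for 3 of the 53, beside 95 of the 955 (9.95%), with log2 fold changes of 4.51 for miR-341-3p, -3.90 for miR-433-3p and -3.46 for miR-673-5p (edgeR, adjusted p = 0.333 for each). These rest on few counts, 7, 6 and 5 over all 13 libraries in that order.

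The direction of miR-434-5p rested on control replicate 1: without that library its log2 fold change was 0.92. Without the 5 libraries rich in miR-5119, C26-bearing replicates 5 and 6 stood against control replicates 1 to 3. The 5 members tested all had values below 0, beside 76 of all 141 miRNAs tested, and none passed the test. They were miR-541-5p at -1.45, miR-127-3p at -2.28, miR-434-5p at -1.11, miR-379-5p at -1.15 and miR-381-3p at -0.58. Among the 5 rich libraries, with 1 control, 2 of the 4 members tested lay above 0 and 2 below, beside 53 of all 125 miRNAs below 0. There miR-541-5p stood at -0.15, and miR-379-5p and miR-381-3p had no count in that control. The part of miR-5119 in these values was not tested.

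Counting over the 20 members with at least 10 plasma counts, the ranges of C26-bearing and control libraries overlapped for every one. Of all 348 plasma miRNAs with that many counts the ranges did not overlap for 3 (0.862%). The mean was lower in C26-bearing plasma for 10 and higher for 10. Markers of muscle (miR-1a-3p, miR-133a-3p and miR-206-3p), a tissue that also uses the cluster, summed to 1.99% ± 1.41 (SD, n = 4, 0.725 to 4.01) of control plasma counts and 6.08% ± 5.01 (SD, n = 6, 1.76 to 14.9) of C26-bearing plasma counts. The 5 brain markers summed to 0.428% ± 0.00883 (SD, n = 3) of TMV counts, 1.096% ± 0.813 (SD, n = 4, 0.176 to 2.15) of control plasma counts and 0.610% ± 0.713 (SD, n = 6, 0.0817 to 1.92) of C26-bearing plasma counts. In plasma nearly all of that sum was miR-128-3p, with 4638 control and 1095 C26-bearing counts. miR-9-5p had 1280 counts in TMVs against 5 in C26-bearing and 8 in control plasma, miR-138-5p had 19 against 0 and 4, and miR-124-3p and miR-219a-5p had none in any library. The part of muscle and brain markers in the cluster values was not tested.

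The second question was how vesicles of C26 cells stand against plasma. By edgeR's quasi-likelihood test on the 1066 miRNAs shared by both tables, 7 members were among the 207 tested, and all 7 were called lower in TMVs than in control plasma, where 60 of 207 (29%) were called lower and 45 higher. Against C26-bearing plasma 6 of the 7 were called lower, again beside 60 of 207 (29%) called lower, and 43 higher. The members passed the filter on low counts through plasma alone, so they had to be lower in TMVs. Neither their number nor the fold changes and p-values below, which are given as a description, are support for a difference particular to the cluster. Both comparisons use the same 3 TMV libraries. The median log2 fold change over the 207 was -0.06 against control plasma and -0.31 against C26-bearing plasma.

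How many of all miRNAs were lower depended on the scaling between libraries. With library totals in place of TMM factors, 49 were called lower and 77 higher against either plasma group, and the median log2 fold change over all 207 moved to 0.92 against control and 0.81 against C26-bearing plasma. With RLE factors these medians were 0.21 and 0.04. The 7 members had values below 0 under each scaling. With library totals 6 of them, all but miR-127-3p, passed the test against control plasma, and 5, all but miR-127-3p and miR-409-3p, against C26-bearing plasma.

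Of the miRNAs opposite Rtl1, miR-434-5p fell by 7.40 on the log2 scale against control plasma (SE 1.40, edgeR adjusted p = 0.000786) and by 6.80 against C26-bearing plasma (adjusted p = 0.000880). It rested on 1 TMV count. Pooled over libraries, the ratio of plasma to TMV level was 223 for control plasma with a counting interval of 39.5 to 8873, and 104 for C26-bearing plasma with 17.9 to 4173. miR-127-3p fell by 3.25 against control plasma (SE 1.19, edgeR adjusted p = 0.0332), and its value of -2.64 against C26-bearing plasma did not pass (SE 1.14, adjusted p = 0.0638). Its pooled ratios were 5.80 (3.27 to 10.9) and 3.83 (2.01 to 7.64).

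TMV replicate 2 gave 11 of the 15 TMV counts of miR-127-3p. That library also held 1014 counts of miR-1a-3p and 30 of miR-133a-3p, both muscle miRNAs, against 118 and 110 and against 2 and 2 in the other TMV libraries, while miR-206-3p was even at 180, 185 and 174 counts. The summed share of these 3 muscle miRNAs was 1.09% there and 0.205% and 0.168% in the others. Without it miR-127-3p stood at -4.63 and -3.96 on the log2 scale and passed both tests. The part of the muscle miRNAs in this value was not tested.

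In Mirg, miR-541-5p fell by 6.86 against control plasma (SE 0.97, edgeR adjusted p = 7.31e-05) and by 6.39 against C26-bearing plasma (adjusted p = 0.000105). Every plasma library exceeded every TMV library. With 2 TMV counts, its pooled ratios were 90.9 (24.7 to 759) and 67.7 (18.1 to 569). miR-409-3p fell by 3.44 (edgeR adjusted p = 0.0136) and fell by 3.25 (adjusted p = 0.0156), with pooled ratios of 7.43 (3.62 to 17.2) and 4.74 (2.11 to 11.6).

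Between Rian and Mirg, miR-381-3p fell by 4.997 against control plasma (SE 1.02, edgeR adjusted p = 0.00114) and fell by 5.60 against C26-bearing plasma (adjusted p = 0.000494), with pooled ratios of 23.1 (8.61 to 87.1) and 31.5 (11.8 to 119). miR-379-5p fell by 4.01 (edgeR adjusted p = 0.0125) and fell by 5.11 (adjusted p = 0.00326), with ratios of 12.7 (5.49 to 36.1) and 26.3 (11.6 to 73.6). Its relative miR-411-5p passed both tests (edgeR adjusted p = 0.00434 and 0.00218). With no TMV count it is best given as a bound, at least 2.999-fold lower than in control plasma and at least 5.92-fold lower than in C26-bearing plasma, set against 3 counts per TMV library.

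**Figure D3:**
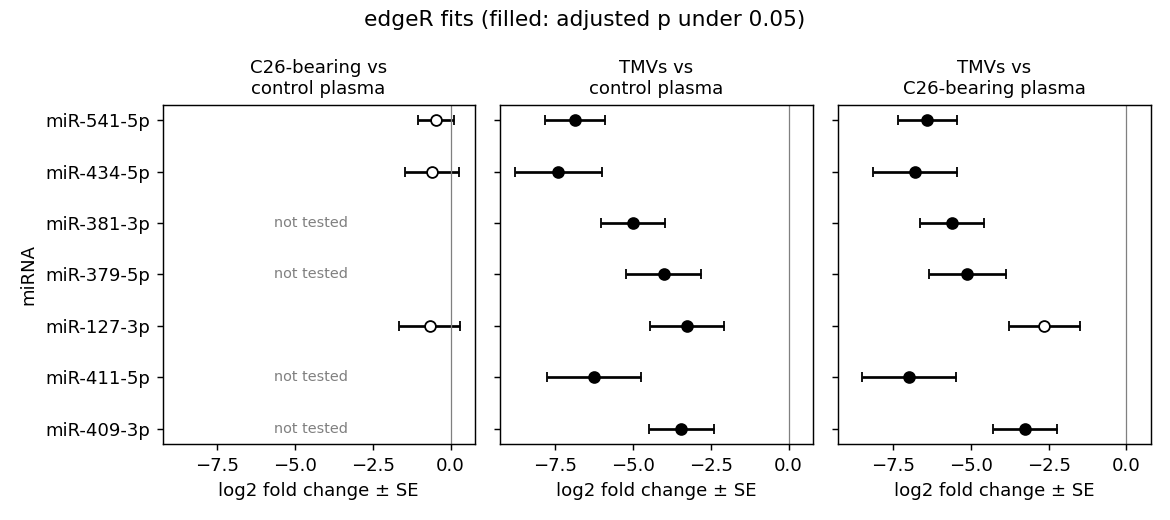
Log2 fold change with SE (x axis) of the 7 members tested (y axis) in each comparison; filled points passed an adjusted p of 0.05 in edgeR. In plasma the 3 tested members lie between -0.66 and -0.48, and in the comparisons of TMVs with plasma all lie at -2.64 or below.

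The number of calls was sensitive to single libraries. Against control plasma 4 of 7 members tested were called without TMV replicate 1 (miR-381-3p, miR-411-5p, miR-434-5p and miR-541-5p), beside 18.2% of all miRNAs tested called lower. Without control replicate 1 there were 4 of 5 tested (miR-379-5p, miR-381-3p, miR-434-5p and miR-541-5p), beside 25.7%. Against C26-bearing plasma 4 of 5 tested were called without control replicate 1, beside 28.7%, and 4 of 5 without C26-bearing replicate 2, beside 28%. With the 2 groups alone in the fit, 4 members were tested against control plasma and all 4 were called, beside 27.3%.

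The members below the filter were given as counts. In TMVs, miR-770-3p, miR-412-3p, miR-665-3p, miR-136-3p and miR-300-3p had no count, against 25, 15, 11, 16 and 11 plasma counts. miR-370-3p and miR-485-5p had 2 TMV counts each against 28 and 16 in plasma, miR-543-3p and miR-485-3p 1 each against 18 and 11.

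Precursors differed in the arm that was found. Of 18 precursors with both arms listed and at least 10 plasma counts, 15 had more than 80% of them on 1 arm and 9 had all of them there. The 5p arm led in 8 and the 3p arm in 10. miR-541 (209 counts), miR-379 (142) and miR-381 (137) had counts of 1 arm only, 5p for the first pair and 3p for miR-381. miR-127 was 93.2% 3p (96 of 103, Wilson interval 86.6 to 96.7) and in TMVs 15 of 15. miR-485, with 16 counts of the 5p and 11 of the 3p arm, and miR-341, with 15 and 7, were the most even.

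**Figure D4:**
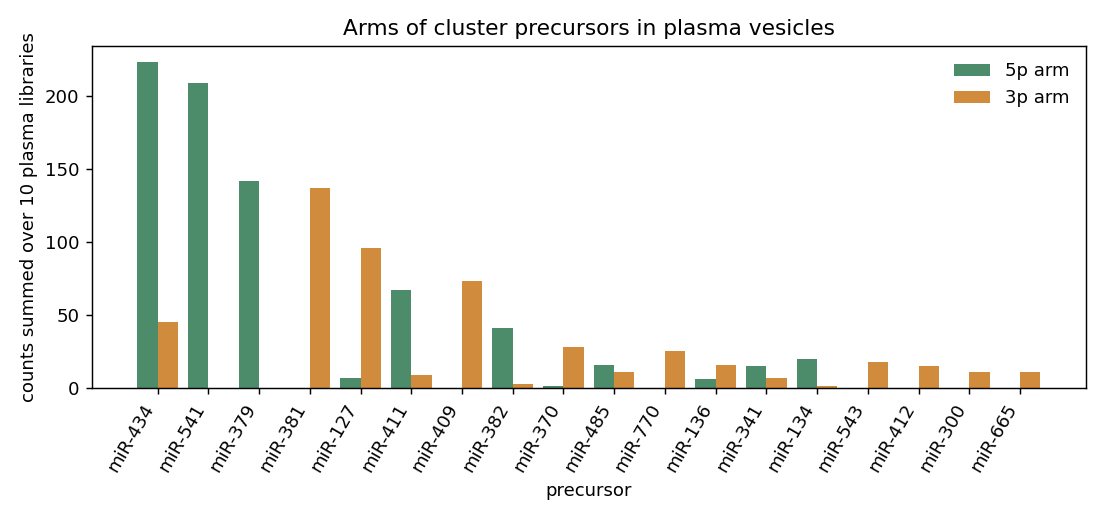
Counts summed over the 10 plasma libraries (y axis) of the 5p and 3p arms of 18 cluster precursors (x axis, ordered by their sum). Of the 18, 9 show 1 arm alone; miR-434 has 223 counts of the 5p and 45 of the 3p arm.

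Along the chromosome the matched members fell into a pair of blocks with a gap of 90.7 kb between them. The first, from Mir770 in Meg3 to Mir370 in Rian (chr12:109563692-109618336), held 24 members of 12 precursors, and 19 of them had counts. The second, from Mir379 to Mir410 (chr12:109709060-109743795), held 54 members of 30 precursors, and 35 had counts. Of the counts of matched members, the first block gave 42.5% ± 17.6 (SD, n = 4, 26.2 to 64) in control libraries and 40.8% ± 6.49 (SD, n = 6, 33.9 to 48.9) in C26-bearing ones. In TMVs it gave 31.1% ± 22.96 (SD, n = 3), with 15 of its 21 counts from TMV replicate 2. Both blocks were therefore present in each group, and their balance did not separate the groups beyond their spread.

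**Figure D5:**
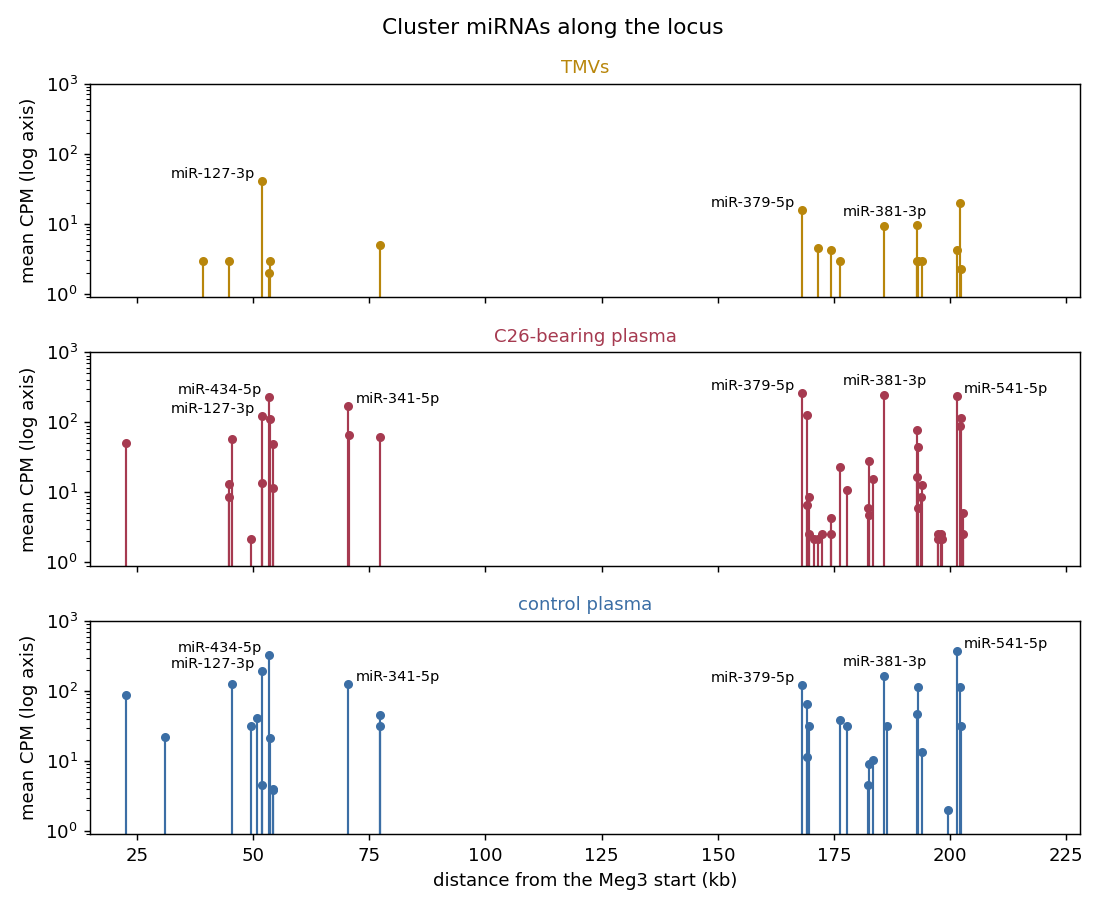
Mean level in each group (y axis, CPM on a log axis) of each detected member against its distance from the start of Meg3 (x axis, kb). Points are members; no member lies in the 90.7 kb between the blocks, and TMV means stay at 40.8 CPM (miR-127-3p) or below.

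Further miRNAs of the cluster, outside the names used above, were also sparse. Of 21 such rows, 13 had a count, with 6 counts in TMVs, 9 in control plasma and 20 in C26-bearing plasma, and none reached 10 counts or was tested.

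Imprinted miRNAs of other loci took a higher mean share of the counts in TMVs than in plasma. A list of 10 rows (arms of miR-335 in Mest, miR-483 in Igf2, miR-675 in H19, and miR-296 and miR-298 near Gnas) summed to 0.133% ± 0.0357 (SD, n = 3) of TMV counts (0.0979 to 0.169), 0.0189% ± 0.00778 (SD, n = 4) of control plasma counts and 0.0339% ± 0.0330 (SD, n = 6, at most 0.0900) of C26-bearing plasma counts. Of these totals every TMV library lay above every plasma library, but with the 4 leading miRNAs out of the totals C26-bearing replicate 6, at 0.213%, lay above the TMV libraries, at 0.0994% to 0.170%. miR-298-5p stood at 1051, 801 and 545 CPM in the TMV libraries and had 12 and 9 counts in C26-bearing and control plasma. Its log2 fold changes were 3.90 against control plasma (SE 1.00, edgeR adjusted p = 0.00540) and 2.87 against C26-bearing plasma (adjusted p = 0.00983). With so few plasma counts it passed the filter on low counts through its level in TMVs, so a higher value there was given in advance. These values are a description only.

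The others of that list did not all follow. miR-296-3p, with 82, 55 and 66 TMV counts, had log2 fold changes of 1.75 and 0.20 that did not pass the test (edgeR adjusted p = 0.149 and 0.853). miR-296-5p had 15 TMV counts and 1 plasma count. miR-483-5p had 3 TMV counts and 8 in plasma. miR-335-3p, from an intron of Mest, had no TMV count and 22 and 18 counts in the plasma groups.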

How the data were processed

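Small RNA of 13 libraries was analysed from the deposited tables of raw counts per mature miRNA, which the authors made with bcl2fastq and cutadapt 1.10 among their tools, per the submitters' processing notes. RNA was isolated from pelleted vesicles and libraries were made with a kit for small RNA, per the labels' protocols. For the aligner, counter, miRNA annotation and genome build, the sources used here name nothing. Library totals ran from 7962 to 170571 counts.

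Members were found by name, and members, lists and tests were chosen with earlier results of these data known. Levels are counts per 1000000 counts of the library total. Shares carry 95% Wilson intervals, and 3 counts served as the floor of a library without counts. Replicate libraries are taken as the labels give them; since nothing says that they came from separate cultures or mice, p-values cover only their spread, which may be technical.

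edgeR 4.0.16 (R 4.3.3) was run on counts with TMM, filterByExpr with a minimum count of 10, a quasi-likelihood fit (robust) and adjustment by Benjamini-Hochberg over all miRNAs tested, with 0.05 as threshold. Standard errors were taken from the fold change and its F statistic. Plasma groups were fitted over 10 libraries, and both comparisons with TMVs in 1 fit of 13 libraries. The procedure was also run on simulated counts with the same spread for every miRNA and no shift of miR-5119 between libraries. That run does not show how the procedure behaves under such shifts. Alternatives were RLE and total-count scaling, DESeq2 1.42.0, other filters, leaving out libraries or miR-5119, a miR-5119 term and a replicate block. Arms of nearly identical or overlapping genes (miR-299a and the antisense miR-299b, for example) could be split by the counting. Every member with at least 10 counts was named, and 9 leading members, by mean plasma level or TMV counts, were given in every library.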

Additional observations from a re-analysis of the deposited data

Results flagged for a closer look

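In groups of 4 or more libraries, 44 sets of values were looked at: levels of members, summed shares and numbers of members detected. In 11 of them, all levels of single members, 1 library lay far from the rest by Dixon's gap rule. The rate of about 1 in 20 groups by chance holds for normally distributed values. It does not apply to levels from so few counts in libraries of unequal depth. In 5 of the 11 the nearest library stood at 0.

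C26-bearing replicate 2 stood apart for miR-541-5p at 602.3 CPM (next library 211.8), miR-379-5p at 798.7 CPM (next 305.2), miR-434-3p at 301.1 CPM (next 101.8) and miR-300-3p at 91.65 CPM (0 in the others). C26-bearing replicate 4, with 9828 counts in all, stood apart for miR-341-5p at 915.8 CPM (next 103.6), miR-412-3p at 508.8 CPM (next 75.66) and miR-543-3p at 101.8 CPM (next 35.91), the last from 1 count.

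Control replicate 4, with 7962 counts, stood apart for miR-341-5p at 502.4 CPM, miR-665-3p at 502.4 CPM and miR-412-3p at 125.6 CPM, each at 0 in the other controls. Control replicate 1 stood apart for miR-136-3p at 15.87 CPM, from 2 counts and 0 in the other controls.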

How the results depend on the processing

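Most members had too few counts for a test. The number of members called in plasma was 0 in every alternative run. Without C26-bearing replicate 2 no member had enough counts to be tested there, so that run could not call any. The other runs in plasma tested from 2 to 53 members. The number of members tested changed as well. Against control plasma 7 of 7 members tested were called. It was 11 of 51 without a filter (9.1% of all tested called lower) and 8 of 27 with a filter of 10 CPM (13%). With 2 groups in the fit it was 4 of 4 (27.3%). With 1 library left out 5 to 7 were tested and 4 to 7 called (18.2% to 29.8%). Against C26-bearing plasma it was 6 of 7, and 16 of 51 without a filter (13.1%) and 14 of 27 with a filter of 10 CPM (21%). With 1 library left out 5 to 7 were tested and 4 to 7 called (23.6% to 31.2%). Without the control libraries described by 2 numbers, replicates 2 and 3, 9 members were tested against each plasma group. Against control plasma 7 were called (25.8% of all tested called lower) and against C26-bearing plasma 8 (31.6%). miR-127-3p lost its call against control plasma in 8 of 24 alternatives and gained one against C26-bearing plasma in 5 of 23. The cause was not tested.

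The log2 fold change of miR-434-5p in plasma turned from -0.59 to 0.92 without control replicate 1 (range with 1 library left out -1.04 to 0.92) and to 0.56 with the replicate block. Deviations of plasma libraries with the same replicate number correlated at -0.37, -0.29, -0.30 and 0.16. Not every control replicate carries the number of its sample description, so these values cannot show whether samples were paired. With the block 0 members were called in plasma and 7 in each comparison with TMVs, beside 30.4% of all tested called lower.

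The summed share was 0.481% in C26-bearing and 0.469% in control plasma with the 4 leading miRNAs out of the totals. With 1 library left out it was 0.192% to 0.274% in C26-bearing plasma, 0.202% to 0.273% in control plasma and 0.00898% to 0.0180% in TMVs. Members detected per library in TMVs, C26-bearing and control plasma were 1.33, 7.83 and 9.50 at 3 counts, 0.333, 2.67 and 4.50 at 10 counts, and 1.04, 10.1 and 9.38 at equal depth.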

Other observations

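The arms of miR-434 were found in unlike proportions in the plasma groups; this was noticed after the values were seen and was not tested. In C26-bearing plasma 56 of 90 counts were 5p (62.2%, Wilson interval 51.9 to 71.5) and in control plasma 167 of 178 (93.8%, 89.3 to 96.5). By library the 5p part was 75%, 54.9%, 66.7%, 75%, 81.8% and 60% in C26-bearing replicates 1 to 6. In control replicates 1 to 3 it was 98.3%, 100% (from 2 counts) and 83.6%, and control replicate 4 had no count of either arm. The 2 control libraries with more than 2 counts lay above all 6 C26-bearing libraries. The closest values were 83.6% in control replicate 3 and 81.8%, from 11 counts, in C26-bearing replicate 5. C26-bearing replicates 1 to 6 rested on 4, 51, 15, 4, 11 and 5 counts of both arms. The intervals cover counting error only and treat counts as independent molecules. Most control counts, 121 of 178, came from control replicate 1.

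Some members were found mainly in the 5 plasma libraries rich in miR-5119, which held 32.5% of all plasma counts (20.99% with miR-5119 left out) and 41.8% of the cluster counts. All 15 counts of miR-341-5p and all 11 of miR-665-3p came from these libraries, as did 14 of 15 of miR-412-3p and 72% of the 25 of miR-770-3p. Over the 20 members with at least 10 plasma counts that part ran from 5.56% (miR-543-3p, 18 counts) to 100%, and it was 19.7% for miR-434-5p and 32.3% for miR-127-3p. These are values only, and their relation to miR-5119 was not tested.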
